A study of Homo sapiens with 12 samples.

Results

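Of the 610 gene symbols that carry a LINC number, the name given to long intergenic noncoding RNA genes, 97 (15.9%) had a mean of at least 0.5 FPKM over the 12 libraries of HEK293 cells, a line derived from human embryonic kidney. These 97 members are the subject here, out of 25268 symbols in all, and they were chosen by their measured mean FPKM (sequenced fragments per transcript length and library size), so their being expressed is not a result. Among the symbols with other names, 59.1% reached the same level. A further 148 LINC symbols were listed at 0 in every library and 365 lay above 0 but under the threshold. The values closest to the threshold were 0.502 FPKM for LINC00346, 0.505 for LINC01358 and 0.518 for LINC00882 on the inside, and 0.491 for LINC00847, 0.49 for LINC00659 and 0.462 for LINC00337 on the outside.

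The cells had been transfected with 2 µg of pCMV6-HIS-HA-RBMX, which expresses the RNA-binding protein RBMX with a tag from a viral promoter, or with the mock empty vector, and the labels call the latter cells wild type. Each of the 6 cultures, 3 per vector, gave a total and a polysomal library, made from 500 ng of RNA each with a kit that selects polyadenylated RNA and does not keep the strand. Per the labels, nuclei and debris were spun out of the lysate ahead of the sucrose gradient, although the nuclear RNAs NEAT1 and MALAT1 were detected at means of 109.3 and 18.9 FPKM. Total RNA was a pool of 20% of each gradient fraction, so it includes the polysomal part. In this transient transfection no clone was selected, and both groups come from 1 cell line.

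A long noncoding RNA is transcribed, spliced and often polyadenylated like a messenger RNA but is not known to encode a protein. Some of these RNAs stay in the nucleus, others reach the cytoplasm, and ribosomes can bind cytoplasmic ones, because any start codon near the 5′ end can be used. Polysomal RNA is the RNA that sediments with several ribosomes, so a lower level in polysomal than in total RNA means a smaller part of that transcript sedimented there relative to other transcripts. A number of genes first named LINC were later found to encode short proteins and were renamed.

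In the current RefSeq annotation all 97 members were found and 32 had another symbol. RefSeq lists 11 as protein-coding, 4 as host genes of small RNAs and 7 by a name given to antisense or divergent transcripts, and 75 remained as other long noncoding RNAs. A single gene of GENCODE v29 on GRCh38 could be assigned to 86 of the members, with a median of 2356 bases for the transcript considered. The other members had no unique match there. The values were made on another build (hg19), so coordinates given here belong to the annotation alone. Of the 86 assigned members, 40 share exonic bases with another gene, 19 of them on the same strand and 29 on the opposite one. Reads from such neighbours cannot be told apart in these libraries, and the levels of those members are uncertain for that reason. Copies elsewhere in the genome, covering at least 50% of the transcript at 95% identity or more, were found for 5 of the 86, among them LINC00657. The members without a unique match were not checked for overlaps or copies, among them LINC00086, LINC00087, LINC00938 and LINC01000.

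The reading frames of 2 members that have been reassigned as protein-coding and of 1 that has not are shown for comparison. The capitals mark the start and the stop codon. LINC00493, now SMIM26 (GRCh38 chr20:18567347-18569563, plus strand), a mitochondrial small protein gene, and LINC00998, now SMIM30 (chr7:113116718-113118613, minus strand), a gene of a small membrane protein, are the most abundant protein-coding members, and their annotated coding sequences have 288 and 180 bases. LINC01023 (chr5:108727825-108728260, minus strand) is listed as noncoding, and its 1 exon of 436 bases holds a longest start-to-stop frame of 180 bases, the same length as that of SMIM30. It is among the members with the largest fall in polysomal RNA.
LINC00493: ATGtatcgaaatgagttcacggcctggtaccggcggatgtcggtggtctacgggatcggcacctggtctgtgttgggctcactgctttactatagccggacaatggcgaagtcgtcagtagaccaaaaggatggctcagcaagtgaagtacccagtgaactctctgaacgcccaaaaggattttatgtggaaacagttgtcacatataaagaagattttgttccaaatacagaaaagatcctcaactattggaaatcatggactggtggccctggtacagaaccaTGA
LINC00998: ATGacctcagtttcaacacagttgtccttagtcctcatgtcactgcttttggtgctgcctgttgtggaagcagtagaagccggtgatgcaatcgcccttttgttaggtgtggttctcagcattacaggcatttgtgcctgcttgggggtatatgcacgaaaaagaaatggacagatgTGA
LINC01023: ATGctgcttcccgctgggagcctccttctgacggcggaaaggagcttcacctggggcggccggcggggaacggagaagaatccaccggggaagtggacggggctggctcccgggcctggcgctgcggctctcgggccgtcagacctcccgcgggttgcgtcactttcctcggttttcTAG
The last 2 frames are equally long. Over the 86 annotated members the longest frame, or the annotated one, had a median of 303 bases in the 29 called lower in polysomal RNA (see the comparison of the fractions) and 327 bases in the other 57. The median GC content of the transcripts was 43.2% and 50.6% in the same groups, and the median number of exons was 3 in both. These are descriptions of the transcripts, not tests.

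RBMX itself, the check of the transfection, had 107.9 to 147.3 FPKM in total RNA and 87.4 to 147.8 in polysomal RNA of control cultures, against 1460 to 2073 and 1072 to 1328 with the RBMX plasmid. The markers of HEK293 cells were all detected, with VIM between 217 and 577 FPKM and PAX2 between 2.49 and 8.8, while the highest value of PTPRC, ALB, PECAM1, HBA1 and COL3A1, markers of other cell types, was 0.526 FPKM for HBA1. Control culture 3 stood apart from the rest. Its VIM level was 248 FPKM in total and 217 in polysomal RNA, where the other 10 libraries had at least 486, and its summed member level was the highest of each fraction, 854 FPKM in total and 778 in polysomal RNA. The count of members lower in polysomal RNA over both vectors is given without it as well. So are the medians and numbers of negative members for the RBMX comparisons and for the difference between the vectors. Counts at an unadjusted p, counts of groups that do not overlap and most values of single members include it. How many fragments each library held is unknown, so no limit of detection can be given.

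The members were mostly of low level. Their median was 1.81 FPKM against 12 for the 14676 genes that passed the same threshold, 13 members had at least 10 FPKM, 56 lay between 1 and 10, and 28 were under 1. The first 3 held 41.3% of the summed member FPKM and the first 10 held 62.2%. All but 2 members were above 0 in every library, and in 80 the mean was at least 0.5 FPKM in each of the 4 groups. A median SD between replicates of 0.16 on the log2(FPKM + 1) scale was close to the 0.14 of all genes tested. The added 1 shrinks the spread of low values, so these SDs do not compare the relative spread.

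LINC00493 had the highest level of all members, with a mean of 123 FPKM. In total RNA it had 119.8, 121.4 and 147.5 FPKM in the control cultures and 126.9, 132.3 and 126.9 in the RBMX cultures. In polysomal RNA the values were 109.5, 111.5 and 153.7 in control cultures and 112.9, 85.9 and 127.9 in RBMX cultures. The 4 groups overlapped, and this was the member above all others in each of the 12 libraries.

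LINC00657, known as NORAD, an abundant cytoplasmic RNA that binds PUMILIO proteins and has been reported to bind RBMX, followed with 80.7 FPKM (chr20:36045622-36050960 of GRCh38, minus strand, 1 exon). It had 92.8, 104.4 and 117.9 FPKM in total and 59.7, 59.4 and 91.6 in polysomal RNA of the control cultures. With RBMX the levels were 74.2, 86 and 93.7 in total and 62.2, 58.3 and 68.5 in polysomal RNA. Every culture was lower in the polysomal library. A transcript named OVCH1-AS1 has a near-identical stretch over 86.2% of its length, so part of this level could belong there.

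LINC00998 averaged 60.2 FPKM and LINC00665, a noncoding RNA studied in tumours, 25. The order of these first 4 held in at least 11 of the 12 libraries for each neighbouring pair. Below them the order was less clear. LINC00665 was above LINC00152 (CYTOR, a cytoplasmic RNA raised in several cancers; mean 24.7 FPKM) in 7 of 12 libraries, LINC00152 above LINC00339 (21.8) in 7, and LINC00339 above LINC00674 (19.2) in 8. LINC00674 exceeded LINC00094 (17), now BRD3OS, in all 12. LINC00263 (14.1), also called OLMALINC, and LINC01023 (11.7) close the first 10, and LINC01023 was above the next member, LINC00294, in 6 of 12 libraries, so these neighbours cannot be ranked.

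**Figure D1:**
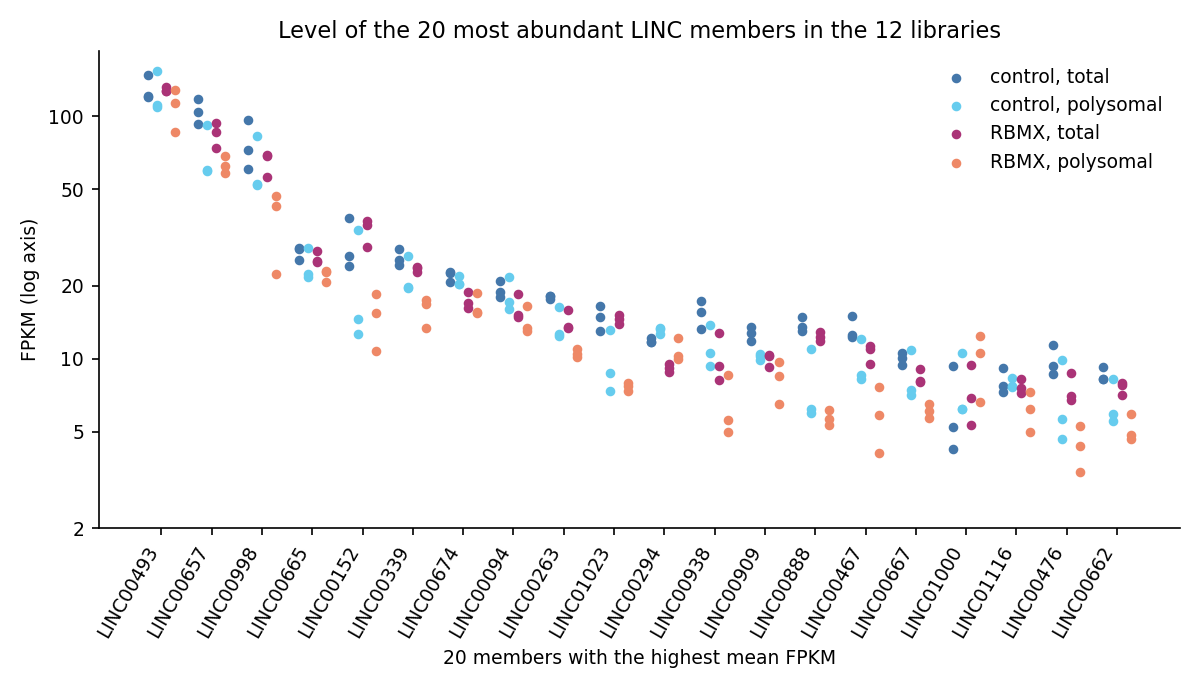
FPKM on a log axis of the 20 members with the highest mean, 1 point per library, coloured by vector and fraction (3 libraries each). LINC00493 lies above 85 FPKM in every library, and from LINC00665 downward the points of neighbouring members overlap.

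The widest spread between replicates was found in 3 members. LINC00159 was listed at 0 in 11 libraries and at 8.8 FPKM in total RNA of RBMX culture 2, so that 1 library alone makes it a member. LINC01355 ranged from 0.461 to 2.28 FPKM in total RNA, with 0.956, 0.461 and 2.22 in control and 2.28, 1.26 and 0.692 in RBMX cultures. LINC00152 had 26.5, 24 and 38.1 FPKM in control total and 12.7, 14.6 and 34 in control polysomal RNA, where culture 3 was far above the other 2. With these 3 members the within-group SD was 0.95, 0.47 and 0.45 on the log2 scale.

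The first comparison asks which members are under-represented or over-represented on polysomes. Polysomal and total RNA of the same culture were compared over all 6 cultures with limma. Of the 97 members, 33 were lower in polysomal RNA at an adjusted p of 0.05 and 0 were higher, where over all genes 10.9% were lower and 6.73% higher. At an unadjusted p under 0.05, 52 members were lower and 6 higher, 58 in all, and 38.6% of all genes passed in either direction. The members' median change was -0.14 on the log2(FPKM + 1) scale against -0.0025 for all genes, and 72 members had a negative value (74.2%, against 50.6% of all genes). The members that fell did so by 0.17 to 0.90, with a median of 0.44, and 31 of them were lower in all 6 cultures. The count depended on the cultures used. It was 29 without control culture 3, but 8 without control culture 1 or 2 and 10 without RBMX culture 3. It was 20 when the pairing of the 2 fractions by culture was ignored. The calls over all genes, in either direction, fell as well from 2584. They were 1032 without control culture 3, 309 without culture 1, 259 without culture 2, 339 without RBMX culture 3 and 970 without the pairing. The members' median without any one culture lay between -0.15 and -0.13.

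Counted without a model, 39 members were lower in polysomal RNA in all 6 cultures and 4 were higher in all 6, where 16.5% of all genes were lower and 16% higher in every culture. The exact sign-flip test over 6 cultures can give no two-sided p under 0.03125, which is the value of each of these members. Another 20 members were lower in 5 of the 6, for which the share of all genes was not computed. In each culture taken alone the members' median was below that of all genes, from -0.08 against -0.02 in control culture 3 to -0.19 against -0.02 in RBMX culture 2. Control culture 3 had the change nearest 0 in 19 of the 33 called members, and RBMX culture 2 the one farthest from 0 in 15.

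**Figure D2:**
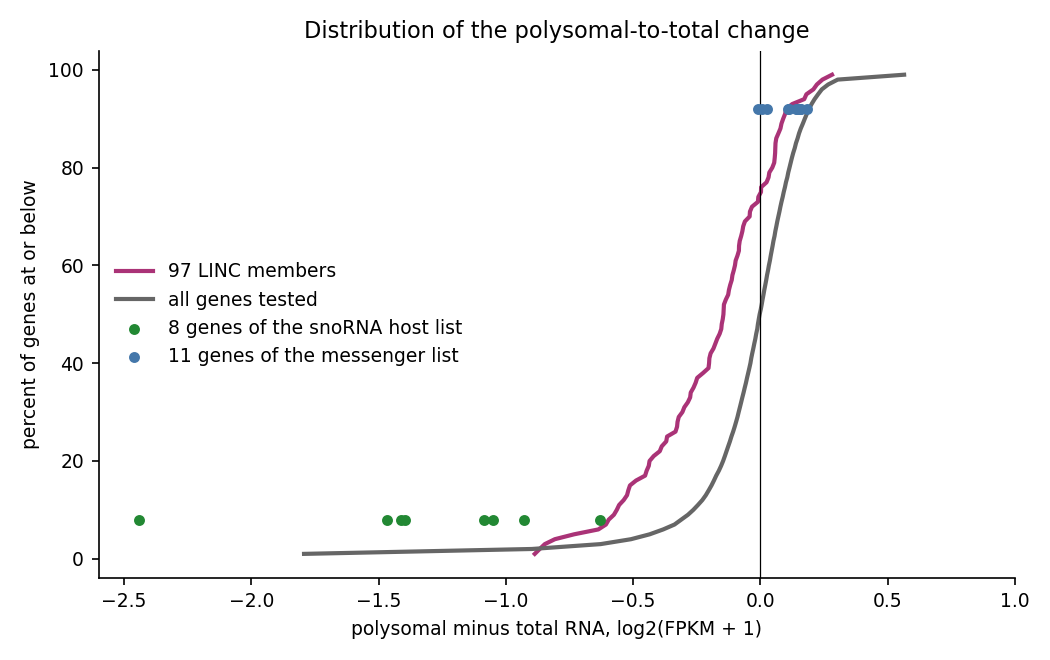
Percent of genes at or below a given polysomal-minus-total change on the log2(FPKM + 1) scale, for the 97 members and for all 14676 genes tested, with the single genes of the small nucleolar RNA host list and of the messenger list as points at a fixed height. The line of the members lies left of that of all genes over most of its range, with medians of -0.14 and -0.0025, the host genes lie further left and the messengers near or right of 0.

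LINC00888, the host of a small nucleolar RNA and now SNHG33 (chr3:183447608-183456013 of GRCh38, plus strand), had the largest fall. Its levels were 13.5, 13 and 14.9 FPKM in total and 6.19, 5.99 and 11 in polysomal RNA of control cultures, and 12.3, 12.9 and 11.8 against 6.14, 5.34 and 5.63 with RBMX. Total and polysomal libraries did not overlap, and the mean polysomal level was 51.4% of the total one. The log2 change was -0.90 ± 0.09 (SE, n = 6 cultures; limma adjusted p = 0.0082).

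LINC00173 (chr12:116533422-116536518, plus strand) had the smallest adjusted p of the members. It had 2.91, 2.22 and 5.84 FPKM in total and 1, 0.749 and 2.96 in polysomal RNA of control cultures, and 3.8, 3.99 and 3.38 against 1.9, 1.57 and 1.38 with RBMX. Although control culture 3 was high in both fractions, each culture fell by 0.72 to 0.97. The change was -0.87 ± 0.04 (adjusted p = 0.0029), and LINC00173 was called within control cells (-0.88, adjusted p = 0.017) and within RBMX cells (-0.85, adjusted p = 0.023) as well.

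LINC00152 had 29, 37 and 35.7 FPKM in total and 15.4, 10.8 and 18.5 in polysomal RNA of RBMX cultures, beside the control values above. Its change of -0.89 ± 0.15 (adjusted p = 0.024) ranged from -0.16 in control culture 3 to -1.69 in RBMX culture 2. A near-identical stretch of MIR4435-2HG covers 30% of its transcript, so the 2 genes' reads may be mixed.

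LINC01311 had 7.26 to 9.65 FPKM in the 6 total libraries and 3.55 to 5.56 in the 6 polysomal ones, without overlap (-0.84 ± 0.08, adjusted p = 0.0077). LINC00460, an RNA studied in tumours, fell by 0.80 ± 0.10 (adjusted p = 0.011), from 2.53 to 4.19 FPKM in total to 0.962 to 2.98 in polysomal RNA. These ranges overlapped through control culture 3, whose polysomal value was the highest of the 6. LINC01023, whose frame is printed above, had 13.1 to 16.5 FPKM in total RNA. Its polysomal levels were 8.75, 7.34 and 13.2 in control and 7.34, 7.69 and 7.92 in RBMX cultures, a change of -0.71 ± 0.09 (adjusted p = 0.012). Only the polysomal library of control culture 3 came up to the total ones.

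LINC00467 fell by 0.61 ± 0.10 (adjusted p = 0.023) and LINC00476, now ERCC6L2-AS1, by 0.60 ± 0.09 (adjusted p = 0.019). Both had the smallest change in control culture 3, -0.29 and -0.19. LINC00115 varied little between cultures, with 2.39 to 2.92 FPKM in total and 1.34 to 1.7 in polysomal RNA (-0.59 ± 0.04, adjusted p = 0.0047). LINC00461, the host of a miR-9 hairpin and now MIR9-2HG, fell by 0.53 ± 0.03 (adjusted p = 0.0034) and was called, with LINC00173 and LINC00115, in each vector alone. Exons of LINC00115, LINC00461 and LINC00476 overlap opposite-strand transcripts, for LINC00476 those of ERCC6L2 among them.

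**Figure D3:**
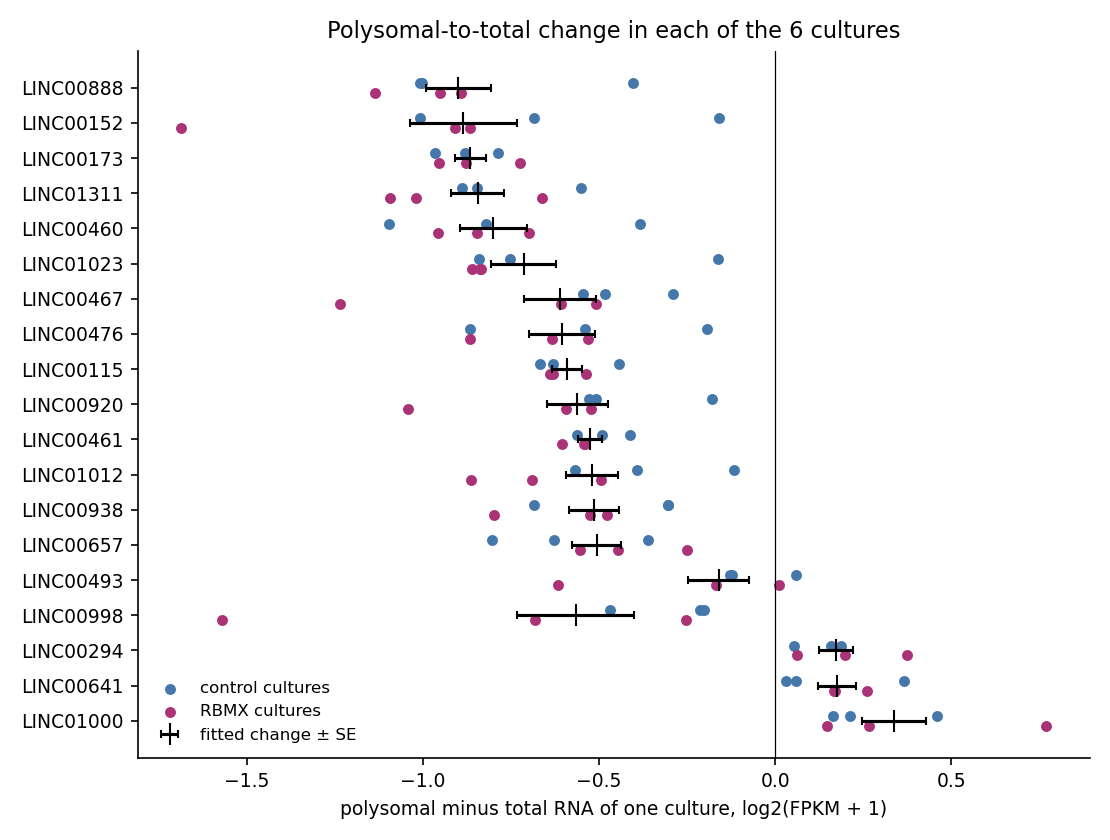
Polysomal minus total level of one culture on the log2(FPKM + 1) scale, with 1 point per culture and the fitted change with its SE, for the 14 members with the largest called fall, the 2 most abundant protein-coding members and the 3 members above 0 in all 6 cultures with the largest values. All points of the first 14 lie below 0, and control culture 3 gives the point nearest 0 in many of them.

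The abundant members differed in this respect. LINC00657 was lower on polysomes by 0.51 ± 0.07 (adjusted p = 0.015, polysomal mean 70.2% of total), LINC00339 by 0.40 ± 0.07 (adjusted p = 0.024) and LINC00263 by 0.39 ± 0.06 (adjusted p = 0.022). LINC00665 fell by 0.20 ± 0.05 (adjusted p = 0.048), with nearly equal levels in control culture 3 (28.71 and 28.73 FPKM). LINC00674 had 16.1 to 22.8 FPKM in total and 15.4 to 22 in polysomal RNA, with a change of -0.07 ± 0.03 (adjusted p = 0.18). Exons of LINC00339 overlap genes on both strands, and a near-identical stretch of SMURF2 covers 50% of the LINC00674 transcript. Of the 32 members with the highest levels 17 were called lower, of the next 33 members 11 and of the last 32 members 5, with medians of -0.30, -0.12 and -0.09. Over all genes 10.9% were called lower. The constant of 1 added before taking logs shrinks the change of low members, and with 0.1 in its place the median of all members was -0.20.

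No member was called higher on polysomes. The largest positive values with the same sign in all 6 cultures belonged to LINC01000 (0.34 ± 0.09, adjusted p = 0.054), LINC00641 (0.18 ± 0.05, adjusted p = 0.068) and LINC00294 (0.17 ± 0.05, adjusted p = 0.057). LINC01000 had 5.21, 4.24 and 9.29 FPKM in total and 6.2, 6.2 and 10.5 in polysomal RNA of control cultures, and 9.43, 6.9 and 5.35 against 10.5, 12.5 and 6.64 with RBMX. The fractions overlapped, and the cultures differed more than the fractions did. With a pseudocount of 0.1 LINC01000 passed as higher. After quantile normalization, which moved the median of all genes to 0.04, these 3 were among 8 members that passed as higher, beside 28 lower. That setting called 3711 of all 14676 genes in either direction. Their split by direction was not computed, so the 8 have no share of all genes to be read against. Exons of LINC00294 overlap opposite-strand genes, and LINC01000 was not checked for overlaps or copies.

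Of the 11 protein-coding members, 1 (9.1%) was called lower and 0 higher, with a median of -0.04. Over all genes 10.9% were called lower and 6.73% higher, so counts this small do not set the class apart. LINC00116, now MTLN, the gene of the mitochondrial protein mitoregulin, was the one called (-0.33 ± 0.08, adjusted p = 0.048), from 5.8 to 8 FPKM in total to 4.3 to 7.61 in polysomal RNA. LINC00493 had a value of -0.16 ± 0.09 (adjusted p = 0.23), above 0 in control culture 3 and RBMX culture 3. LINC00998 had 72.8, 60.7 and 96.1 FPKM in total and 52.2, 52.6 and 82.6 in polysomal RNA of control cultures, and 56.2, 68.6 and 69 against 46.9, 22.4 and 42.6 with RBMX. All 6 cultures were lower, but by 0.20 to 1.57, and the value of -0.57 ± 0.17 did not pass (adjusted p = 0.064). LINC00094 was lower in 5 of 6 cultures (-0.12 ± 0.04, adjusted p = 0.065). Exons of LINC00116 and LINC00094 overlap opposite-strand genes, BRD3 in the case of LINC00094, and those of LINC00493 overlap a same-strand gene.

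LINC00086 and LINC00087, a pair of near-identical genes on chromosome X now named SMIM10L2A and SMIM10L2B, had values of 0.11 ± 0.04 and 0.06 ± 0.07 (adjusted p = 0.13 and 0.56). Their reads may be split between the copies. LINC00634 (SMIM45), LINC00176, LINC01125, LINC00341 (SYNE3, which encodes the nuclear envelope protein nesprin-3) and LINC00959 lay between -0.15 and 0.10, each with an adjusted p of at least 0.12. For LINC00341 the deposited symbol may describe only part of that gene. Of the list of 14 symbols known for small proteins, 6 were members, with a median of -0.14, 1 called lower and 0 higher. Over all genes 10.9% were called lower and 6.73% higher.

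Among the 86 members not listed as protein-coding 32 (37.2%) were called lower, with a median of -0.15, where 10.9% of all genes were called lower. The 4 host genes had a median of -0.39 with 3 called, the 7 antisense or divergent transcripts -0.20 with 2 called, and the 75 others -0.14 with 27 called. Members free of exon overlaps and copies gave 14 called of 42 (median -0.17), and annotated members with either gave 15 of 44 (median -0.14). In the list of studied noncoding RNAs, 4 of 6 were members (LINC00657, LINC00152, LINC00665 and LINC00467), and all 4 were called lower.

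**Figure D4:**
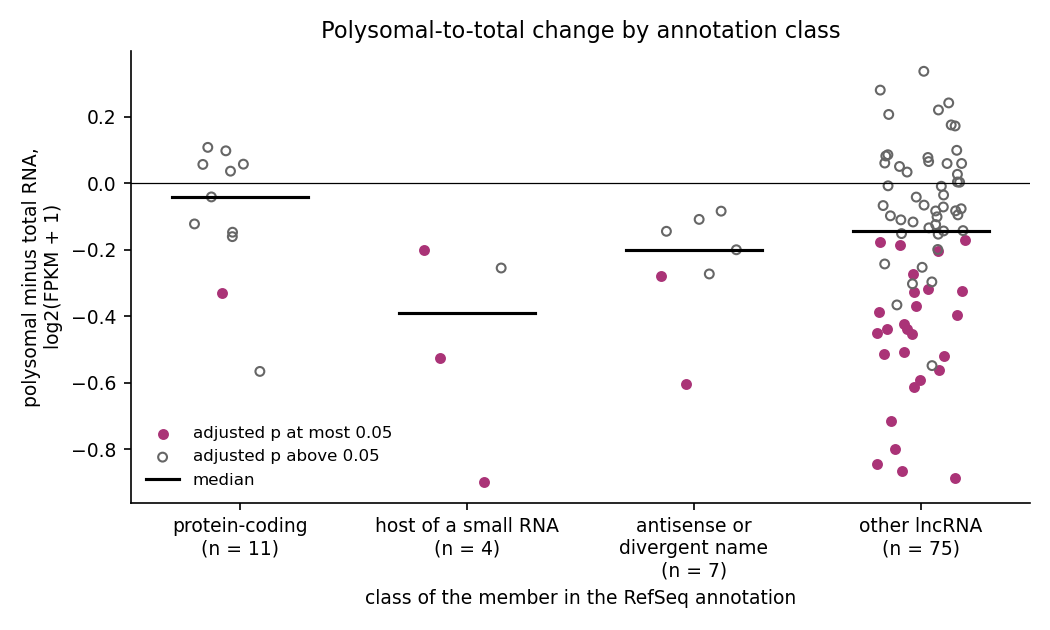
Polysomal minus total change on the log2(FPKM + 1) scale of each member by its class in RefSeq, with filled points for an adjusted p of at most 0.05, open points for the others and a bar at the median of the class. Filled points lie only below 0, and 1 of the 11 protein-coding members is filled against 32 of the 86 others. Over all genes 10.9% were called lower.

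Other transcripts give the scale of these changes. All 8 genes of the small nucleolar RNA host list, whose spliced transcripts carry snoRNAs in their introns, were called lower, with a median of -1.24 and an extreme of -2.44 for SNHG5, larger than the fall of any member. The 11 abundant messengers had a median of 0.14, with 0 called. Of the nuclear RNA list 4 of 6 were above the threshold, NEAT1 was called lower (-0.99, adjusted p = 0.0082), and MALAT1 (0.54), TUG1 (0.04) and HOTAIR (-0.06) did not pass.

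Within control cells alone, 3 members were lower and 0 higher, LINC00173, LINC00115 and LINC00461, where 0.477% of all genes were lower and 0.00681% higher. Within RBMX cells 16 were lower and 0 higher, where 3.11% and 0.0477% of all genes were. The members' medians were -0.11 and -0.17. The named falls in RBMX cells besides those above were LINC00888 (-0.99, adjusted p = 0.033), LINC01311 (-0.93, adjusted p = 0.03), LINC01023 (-0.84, adjusted p = 0.037), LINC00460 (-0.83, adjusted p = 0.04), LINC00920 (-0.72, adjusted p = 0.044) and LINC01012 (-0.68, adjusted p = 0.037). With the 6 libraries of 1 vector fitted alone both counts were 0, and without RBMX culture 2 or 3, or control culture 1 or 2, the count in RBMX cells was 0. Over all 14676 genes these fits called 2 to 6. In control cells the largest positive values with 1 sign in the 3 cultures were those of LINC01000, LINC01134 (0.18) and LINC01002 (0.16). In RBMX cells they were those of LINC01000, LINC00342 (0.38) and LINC00852 (0.37), and none in either vector passed. Near-identical copies cover 100% of the LINC00342 and 91.4% of the LINC01002 transcript, and exons of LINC00852 overlap GHRL on the opposite strand.

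The different counts in the 2 vectors do not show a difference between them. The test of the difference itself called 0 members, where 0.0341% of all genes were called, and 1 member, LINC01089, had an unadjusted p under 0.05, which 2.15% of all genes had. The median difference of the members was -0.06 against -0.0019 for all genes, with 67 of 97 below 0. Without control culture 3 the median difference was -0.0216 for the members against -0.0158 for all genes, with 54 members below 0. The members whose 3 RBMX cultures all lay outside the range of the control cultures with the largest differences were LINC00339 (-0.29), LINC01002 (-0.16) and LINC01356 (-0.16) on the lower side and LINC01061 (0.28) and LINC00941 (0.09) on the higher side. The smallest adjusted p of any member was 0.9998.

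The last comparisons ask whether RBMX overexpression moved the members within a fraction. In such bulk RNA, less RNA per cell and fewer cells expressing it cannot be told apart. In total RNA 0 members passed limma's adjusted p of 0.05, where 0.164% of all genes did, and in polysomal RNA 0 passed, where 0.0477% did. At an unadjusted p under 0.05 there were 28 members in total RNA, 24 of them lower with RBMX, and 23 in polysomal RNA, 22 of them lower, where 18.8% and 11.7% of all genes passed in either direction. Median changes were -0.10 and -0.15, against 0 for all genes, and 72 and 73 of the 97 members had negative values. Both shifts were smaller without control culture 3, the one with the highest member levels. The medians were then -0.05 and -0.06, against -0.0126 and -0.0271 for all genes, with 55 and 57 members below 0.

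In total RNA the RBMX and control libraries did not overlap in 29 members that were lower with RBMX and in 4 that were higher, where 15.4% and 11.9% of all genes were. In polysomal RNA these numbers were 29 and 1, where 12.5% and 10% of all genes were. These counts, and those at an unadjusted p, are given with control culture 3 included. The 2 fractions come from the same cultures, so they are not independent. For 3 against 3 cultures an exact permutation test cannot give a two-sided p under 0.1.

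LINC00938 had the most negative value in total RNA. It had 13.3, 15.6 and 17.3 FPKM in total RNA of control and 8.19, 9.37 and 12.8 of RBMX cultures, with no overlap (-0.57 ± 0.18, SE, limma adjusted p = 0.2). In polysomal RNA the levels were 10.6, 9.35 and 13.8 against 5.6, 4.97 and 8.59 (-0.74 ± 0.23, adjusted p = 0.4). In both fractions each RBMX library was below each control library, and the member was also called lower on polysomes (-0.52 ± 0.07, adjusted p = 0.015).

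LINC00936, now ATP2B1-AS1 and named for its place opposite the calcium pump gene ATP2B1, had 3.18, 3.3 and 4 FPKM in control and 2.28, 2.12 and 2.53 in RBMX total RNA (-0.44 ± 0.09, adjusted p = 0.17). Its polysomal levels were 2.86, 2.57 and 3.14 against 1.5, 1.41 and 1.96 (-0.56 ± 0.10, adjusted p = 0.4). Reads of ATP2B1 could enter both values, since their exons overlap.

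LINC01278 on chromosome X had 6.83, 6.45 and 6.53 FPKM in control and 4.95, 4.31 and 5.41 in RBMX total RNA (-0.37 ± 0.08, adjusted p = 0.18), and polysomal levels of 5.66, 5.95 and 7.32 against 4.09, 4.55 and 5.06. LINC00294 had 11.8, 12.2 and 11.7 FPKM in control against 9.53, 8.81 and 9.19 in RBMX total RNA, and its adjusted p of 0.15 (-0.34 ± 0.06) was the smallest of the members. These control values spread little, and culture 3 did not differ from the other control cultures. Exons of LINC00294 overlap those of CSTF3 and PIGCP1 on the opposite strand, so reads of these genes could enter its values. In polysomal RNA LINC00998 (-0.76 ± 0.33, adjusted p = 0.43) and LINC00467 (-0.64 ± 0.24, adjusted p = 0.42) were, with LINC00938, the 3 most negative of the members without overlap.

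Positive values with RBMX were fewer. LINC01358, which passed the level threshold by little, had 0.37, 0.402 and 0.149 FPKM in control and 0.892, 1.71 and 0.775 in RBMX total RNA (0.68 ± 0.18, adjusted p = 0.18). Only its RBMX total libraries averaged over the threshold, so the group in which it is high let it become a member. In polysomal RNA it had 0.176, 0 and 0.243 against 0.643, 0.46 and 0.249. LINC01311 (0.23 ± 0.08, adjusted p = 0.23) and LINC00341 (0.22 ± 0.09, adjusted p = 0.26) followed in total RNA among the members whose groups did not overlap. LINC01356 was above the control range in total and below it in polysomal RNA, by 0.09 and -0.07. The value of LINC00159, 1.10, comes from a single library.

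NORAD, named above for its reported contact with RBMX, had a change of -0.31 ± 0.13 in total (adjusted p = 0.27) and of -0.13 ± 0.19 in polysomal RNA (adjusted p = 0.78). The groups overlapped in both fractions. Between total and polysomal RNA its level fell in each of the 6 cultures, by 0.63, 0.80 and 0.36 with the control vector and by 0.25, 0.55 and 0.45 with RBMX, and the difference between the vectors was 0.18.

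**Figure D5:**
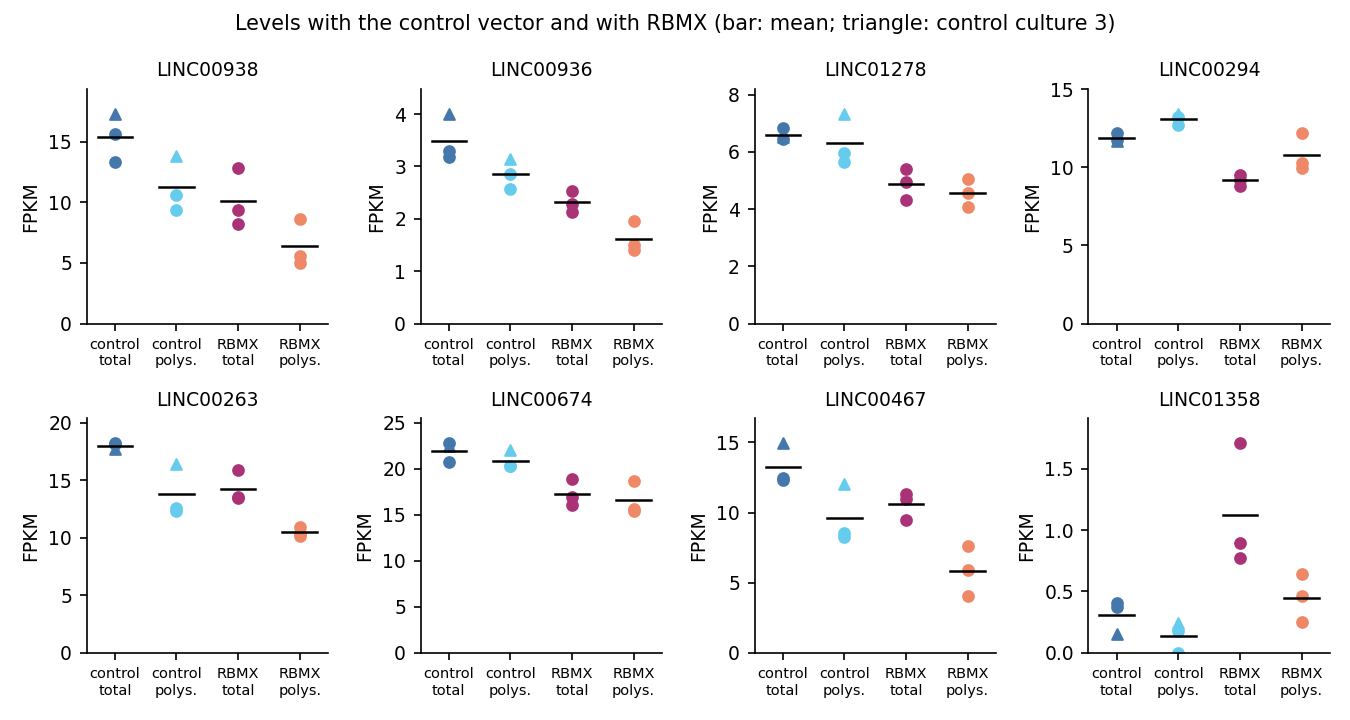
FPKM of 8 members in the 4 groups, with 1 point per library, a bar at the mean of the 3 libraries and a triangle for control culture 3, and with each vertical axis starting at 0. In LINC00938, LINC00936, LINC01278, LINC00294, LINC00263, LINC00674 and LINC00467 the RBMX libraries of a fraction lie below the control ones, in LINC01358 above, and none of these differences passed the adjusted threshold.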

How the data were processed

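The authors deposited FPKM values per gene symbol for the 12 libraries. Their processing notes name CASAVA 1.8, TopHat2 2.0.13, Cufflinks 2.2.1, Cuffnorm and hg19, without role or order. The paper's methods describe another pipeline, on hg38 with GENCODE v27, and do not mention these FPKM values, so the annotation behind them is not given in the sources used here. Here log2(FPKM + 1) of the 14676 genes whose mean reached 0.5 FPKM was fitted with limma 3.58.1 in R 4.3.3 (lmFit, eBayes with an intensity trend), with Benjamini-Hochberg adjustment over all of them and a threshold of 0.05. For polysomal against total RNA and its change with RBMX, all 12 libraries entered with the culture as a block, because both fractions come from one gradient per the methods. Deviations from the group means of the 2 fractions of one culture correlated with 0.606, 0.686 and 0.836 in control and 0.223, 0.0199 and 0.655 in RBMX cultures, over genes other than 494 small RNA genes. For RBMX against control, the 6 libraries of a fraction entered with no block. The paper's methods state biological triplicates, while the labels do not say that replicates are separate experiments. The p-values measure the spread between these cultures.

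The fits were tested on simulated data of 14676 genes, with 100 genes changed per size. The noise was normal and independent between genes, so deviations that the genes of a culture share were absent. The shares of false calls below belong to that setting and may not hold for these libraries. For polysomal against total RNA over both vectors 79% of planted changes of 0.5 and 96% of those of 1 (log2) were recovered, with 7.41% of the calls false. For RBMX against control, changes of 1 and 2 were recovered to 55% and 94% in total RNA and to 53% and 91% in polysomal RNA, with 3.87% and 4% of the calls false.

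Low values did not fall on steps of whole reads (14.1% to 22.4% of values up to 0.05 FPKM shared one step), so depth stayed unknown, and 0 columns were left unmatched. Names and transcripts came from RefSeq and GENCODE v29 on GRCh38, with copies found by BLAST 2.17.0. Tables and plots used Python 3.11.15, pandas 2.3.3 and matplotlib 3.10.9. The members, the lists and the comparisons were chosen with earlier results of these data known. Genes named are the 10 most abundant members, all protein-coding and studied ones, up to 8 called members per direction and comparison (with fewer than 3 called, up to 3 that did not pass but held one sign in each culture or did not overlap), those next to the threshold and the 3 of widest spread. LINC01089 was named after its values were seen. The alternatives were a pseudocount of 0.1, minimum means of 1 and 0.1 FPKM or none, quantile normalization, median-ratio rescaling, eBayes with no trend, fits with and without the block, other sets of libraries, and leaving out each culture.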

Additional observations from a re-analysis of the deposited data

How the results depend on the processing

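The count of 33 members lower in polysomal RNA was 19 with no filter on low levels and 20 without the replicate block, and 8 to 29 when one culture was left out. With one culture fewer the fit has fewer samples, and the calls over all genes fell from 2584 to between 259 and 1734. With no filter they were 1018 and without the block 970. Under the other alternatives the count of lower members was 28 to 35. A set of 11 members (among them LINC00888, LINC01311, LINC01023, LINC00115 and LINC00657) passed under every alternative that kept all cultures. With the pseudocount of 0.1, 1 of 36 called members, LINC01000, was higher. Quantile normalization, which called 3711 genes in place of 2584, split its 36 called members into 28 lower and 8 higher, and shared 28 calls with the count of 33. The median change was -0.20 with a pseudocount of 0.1 and -0.10 after quantile normalization, and -0.15 to -0.13 without one culture. Within control cells, the 3 calls became 0 with no filter or with the 6 libraries of the vector and the replicate block, 1 without the block, and 0 to 4 without one culture; the median of -0.11 was -0.17 with a minimum mean of 1 FPKM and -0.19 with the pseudocount of 0.1. Within RBMX cells, the 16 calls became 0 with the 6 libraries of the vector and the replicate block, 1 with no filter or no block, 5 after quantile normalization and 0 to 12 without one culture; the median of -0.17 was -0.26 with the pseudocount and -0.11 after quantile normalization. The difference between the vectors and both RBMX comparisons called 0 members under every alternative run, the replicate block included; replicate numbers do not pair the vectors, since same-numbered cultures correlated with -0.17 to 0.34. The median difference between the vectors was -0.10 with the pseudocount and -0.0737 to -0.0216 without one culture, and the RBMX medians were -0.13 to -0.05 in total and -0.23 to -0.06 in polysomal RNA without one culture.

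Of 781 alternative values of named members, 7 changed sign, all in members near 0. LINC00634 was 0.0228 after quantile normalization and -0.0946 to 0.0329 without one culture. Without one culture, LINC01125 ranged from -0.0151 to 0.0763, LINC01355 from -0.0543 to 0.0851 and LINC00346 from -0.0164 to 0.0232. LINC00159 has no value without RBMX culture 2. With the depth unknown, the share of counting error in the spread of the low members was not tested.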
